A study of Drosophila melanogaster with 9 samples.

Results

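Muscle of male Drosophila melanogaster that overexpressed Foxo was set against muscle that overexpressed Mnt, gene by gene, to ask where transcript levels under both factors differed. The comparison used 6 of the 9 arrays of the series, 3 Foxo and 3 Mnt, chosen by their titles. The 3 control arrays shared the same fit and placed each gene relative to muscle labelled as control. Signals are deposited RMA values on the log2 scale, where a difference of 1 is a doubling, and 11982 genes with a probe set of their own were tested.

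Flies of the Foxo group carried UAS-FOXO and flies of the Mnt group carried UAS-Mnt, and the series title describes the overexpression as muscle-specific. The labels do not name the driver, the control genotype or the age at which tissue was taken. Per the labels, flies were collected within 24 hours of eclosion and kept at 25 °C with 20 males per vial. RNA came from at least 15 males per group, with 3 independent biological replicates. The UAS stocks came from separate earlier studies, so a difference between stocks and a difference between transgene products cannot be told apart.

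Foxo is a forkhead transcription factor that insulin signalling keeps out of the nucleus, and in muscle it is known for repressing growth and supporting protein turnover and stress resistance. Mnt is a transcriptional repressor that binds Max and competes with Myc, a driver of ribosome production and growth. Both factors are thus known as brakes on growth that act through different DNA elements.

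The targeted transcripts came first. The foxo signal was 11.95, 9.52 and 10.22 on the Foxo arrays, 9.52, 9.19 and 9.34 on the Mnt arrays and 9.42, 9.50 and 9.05 on the control arrays. Foxo replicate 1 was far above the rest, while Foxo replicate 2 was equal to the highest Mnt array at 2 decimals. The difference of 1.21 ± 0.52 (SE, n = 3 arrays per group) did not pass the test, with an adjusted p of 0.366. The Mnt signal was 8.54, 8.41 and 8.50 on the Foxo arrays, 9.85, 11.69 and 11.71 on the Mnt arrays and 8.41, 8.57 and 8.45 on the control arrays. All Mnt arrays were above all others, with Mnt replicate 1 well below the other 2. Its difference of -2.60 ± 0.43 had an adjusted p of 0.107 over all arrays and 5.31e-06 without Mnt replicate 1.

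The label of skeletal muscle was checked against 28 sarcomere genes, whose mean signal was 12.21 to 12.56 on the Foxo arrays, 12.29 to 12.49 on the Mnt arrays and 12.25 to 12.33 on the control arrays. Mhc, which encodes muscle myosin heavy chain, had no probe set of its own. Markers of other tissues were present at levels that varied by array. The mean of 16 testis markers was 8.11, 9.33 and 8.79 on the Foxo arrays, 7.70, 5.66 and 8.69 on the Mnt arrays and 8.16, 7.08 and 5.60 on the control arrays. The mean of 17 accessory gland markers was 4.05, 3.90 and 9.23 on the Foxo arrays, with Foxo replicate 3 far above the others, against 3.92 to 5.09 on the Mnt arrays and 4.07 to 5.32 on the control arrays. The mean of 23 gut markers was 9.41 to 9.59 on the Foxo arrays, 8.35 to 9.06 on the Mnt arrays and 8.28 to 9.53 on the control arrays. The part of these tissues in the results was not tested except by the fits with marker scores given at the end.

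Between Foxo and Mnt muscle, 16 of 11982 genes (0.134%) passed a Benjamini-Hochberg adjusted p of 0.05. Of these, 4 rose in Foxo muscle (0.0334%) and 12 fell (0.1%). The rises were squ, Cyp4p2, Prx6c and mEFTu1. The falls were CycB, CG6664, CG13794, lama, CG3764, Arc2, CG32085, dx, NimC1, Corp, CG5500 and CG6083. At an unadjusted p of 0.05 the number was 1603 (13.4%). The 3 Foxo and 3 Mnt arrays did not overlap for 2171 genes (18.1%), with Foxo higher for 515 (4.3%) and lower for 1656 (13.8%).

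The larger differences mostly pointed up and the reproducible ones mostly down. The median difference over all genes was -0.04, with 5000 genes higher and 6982 lower in Foxo muscle. A difference of at least 1 was found for 456 genes higher in Foxo muscle, of which 55 (12.1%) had groups that did not overlap and 3 were called. Only 15 genes were lower by at least 1, of which 14 (93.3%) had groups that did not overlap and 7 were called. The other 8 were Mnt, Noc2, CG8568, fit, GstD2, TotC, phu and ND-B8, and phu was the 1 whose groups overlapped.

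**Figure D1:**
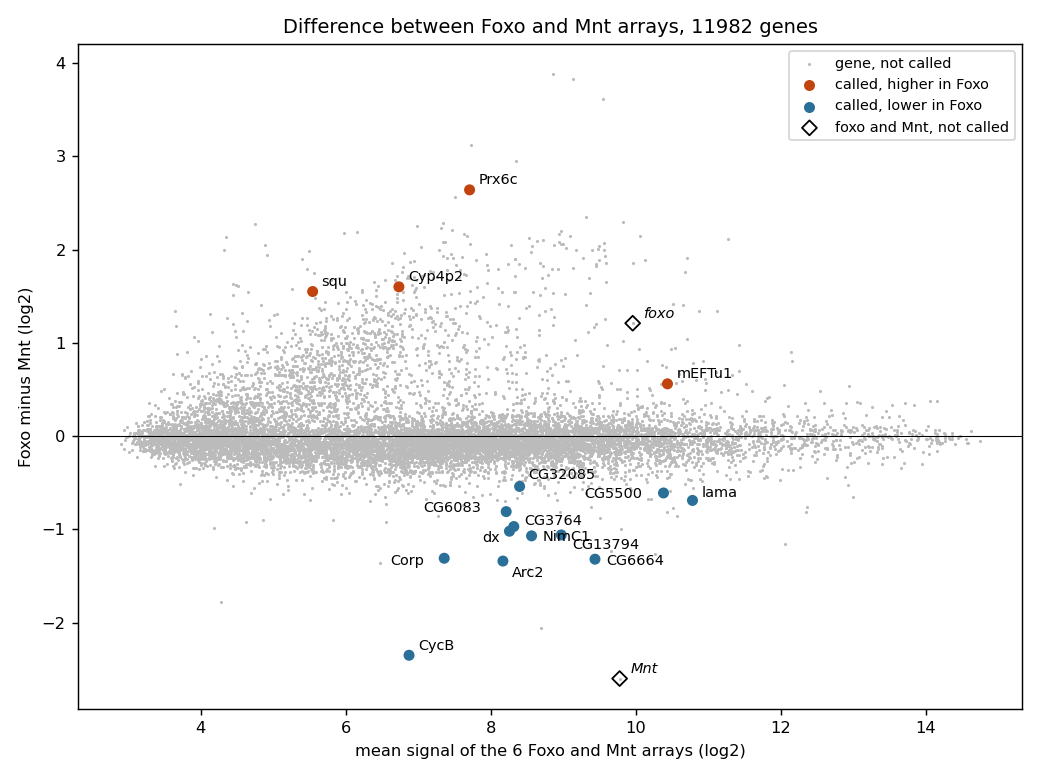
Difference between the Foxo and Mnt means (vertical axis, log2) against the mean signal of the 6 arrays (horizontal axis, log2) for 11982 genes, 1 point per gene. The cloud of rises above 1 is mostly uncalled, the 12 called falls lie below it between -0.54 and -2.35, and foxo and Mnt are drawn as open diamonds.

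CycB had the lowest p of all genes. It encodes the B-type cyclin that activates Cdk1 for entry into mitosis. Its signal was 5.28, 6.04 and 5.77 on the Foxo arrays, 8.22, 7.82 and 8.12 on the Mnt arrays and 7.90, 7.81 and 7.91 on the control arrays. Every Foxo array was at least 1.78 below every Mnt array, and the Mnt and control arrays lay side by side. The level was 5.11-fold lower in Foxo muscle, a difference of -2.35 ± 0.19 with an adjusted p of 0.0141. The other 25 measured genes of the mitotic cell cycle list did not pass the test. In that list 16 of 26 genes were lower in Foxo muscle, with a median of -0.07. The groups did not overlap for 5 of 26 (19.2%), against 18.1% of all genes. The next by p was aurB, the Aurora B kinase of chromosome segregation, which had 4.94, 4.96 and 5.08 on the Foxo arrays, 4.81, 4.77 and 4.68 on the Mnt arrays and 4.55, 4.59 and 4.68 on the control arrays. Its difference was 0.24 ± 0.09, opposite in sign to CycB, with an adjusted p of 0.306. The aurB signal was on every array below 5.09, the lower quartile of the genes' mean signals, and carries no detection call. Of the same list CycA, Cdk1, stg, polo and aurA, among others, had no probe set of their own.

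Corp, for companion of reaper, is a target of the fly p53 protein and is known to lower p53 protein levels. Its signal was 6.64, 6.87 and 6.62 on the Foxo arrays, 7.73, 8.03 and 8.28 on the Mnt arrays and 7.55, 7.82 and 8.02 on the control arrays. All Foxo arrays were below all others, and the Mnt and control arrays overlapped. It fell 2.47-fold (-1.31 ± 0.17, adjusted p = 0.0406). Of 17 measured genes of the p53 and cell death list, 12 were lower in Foxo muscle with a median of -0.14, and Corp alone was called. The groups did not overlap for 7 of 17 (41.2%), all with Foxo lower, against 18.1% of all genes. Both TNF receptors were among these 7. The receptor wgn had 9.70, 9.88 and 9.63 on the Foxo arrays, 10.07, 10.09 and 10.12 on the Mnt arrays and 9.91, 9.98 and 9.90 on the control arrays (-0.36 ± 0.07, adjusted p = 0.139). The receptor grnd had 7.74, 7.57 and 7.73 on the Foxo arrays and 8.09, 8.08 and 8.17 on the Mnt arrays (-0.43 ± 0.11, adjusted p = 0.197). For both receptors every Foxo array was below every Mnt array, and neither passed the test.

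The Notch pathway carried 1 called gene, dx. Its product Deltex is a ubiquitin ligase that binds the intracellular part of Notch. The signal of dx was 7.61, 7.87 and 7.78 on the Foxo arrays, 8.55, 8.83 and 8.93 on the Mnt arrays and 8.12, 8.44 and 8.29 on the control arrays. The 3 groups did not overlap, and the controls lay midway. The level was 2.02-fold lower in Foxo than in Mnt muscle (-1.02 ± 0.12, adjusted p = 0.0384). The difference from control was -0.53 in Foxo muscle (adjusted p = 0.236) and 0.49 in Mnt muscle (adjusted p = 0.999), so neither passed on its own. In the list, 12 of 16 measured genes were lower with a median of -0.12. The groups did not overlap for 7 of 16 (43.8%), 6 of them with Foxo lower, against 18.1% of all genes. Notch itself (N) was not measured, as N, Ser, Su(H), mib1 and Nct, among others, had no probe set of their own. Dl was not matched to a measured gene. The glycosyltransferase fng, which modifies Notch, had 9.45, 9.37 and 9.42 on the Foxo arrays, 9.60, 9.56 and 9.59 on the Mnt arrays and 9.57, 9.64 and 9.70 on the control arrays (-0.17 ± 0.05, adjusted p = 0.256).

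Arc2 is a relative of the neuronal gene Arc, whose Gag-like product forms capsids. Its signal was 7.41, 7.33 and 7.77 on the Foxo arrays, 8.85, 8.64 and 9.04 on the Mnt arrays and 7.78, 8.18 and 8.01 on the control arrays. All Mnt arrays were above all controls and all Foxo arrays below them. The level was 2.53-fold lower in Foxo than in Mnt muscle (-1.34 ± 0.16, adjusted p = 0.0328). It is the 1 called gene whose control mean lay nearer the Foxo mean. The difference from control was -0.49 in Foxo muscle (adjusted p = 0.276) and 0.85 in Mnt muscle (adjusted p = 0.549). Its neighbour and paralog Arc1 had 12.01, 11.77 and 12.03 on the Foxo arrays, 13.00, 12.76 and 12.50 on the Mnt arrays and 12.27, 12.08 and 12.15 on the control arrays. The order of the 3 groups was the same as for Arc2 with no overlap, and the difference of -0.81 ± 0.13 missed the threshold with an adjusted p of 0.0774. With the mean of its 2 probe sets Arc1 was called (adjusted p = 0.0395). Cross-hybridisation between these paralogs was not tested. Of 10 activity-induced genes, 8 were lower in Foxo muscle with a median of -0.17.

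NimC1 encodes a Nimrod receptor with which blood cells take up bacteria. Its signal was 8.12, 7.89 and 8.09 on the Foxo arrays, 9.06, 9.20 and 9.02 on the Mnt arrays and 8.75, 9.02 and 9.29 on the control arrays. All Foxo arrays were below all others, and the Mnt and control arrays overlapped. The gene fell 2.09-fold (-1.07 ± 0.13, adjusted p = 0.0406). The mean of the 15 haemocyte markers, NimC1 included, was 7.69 to 7.76 on the Foxo arrays, 7.80 to 8.01 on the Mnt arrays and 7.82 to 8.08 on the control arrays. In that list 12 of 15 markers were lower with a median of -0.11, and the 14 besides NimC1 were not called. The groups did not overlap for 4 (26.7%), against 18.1% of all genes. The related receptor NimC2 had 5.50, 5.33 and 5.31 on the Foxo arrays and 5.83, 5.91 and 5.58 on the Mnt arrays (-0.39 ± 0.16, adjusted p = 0.35). In bulk tissue, fewer cells of a type and less RNA per cell cannot be told apart.

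CG6664 and CG3764 lie next to each other among the tested genes, and both fell. CG6664 had 8.75, 8.87 and 8.73 on the Foxo arrays, 9.83, 10.23 and 10.25 on the Mnt arrays, and averaged 9.90 ± 0.15 (SD, n = 3) on the control arrays. It was 2.50-fold lower in Foxo muscle (-1.32 ± 0.12, adjusted p = 0.0169). CG3764 had 7.99, 7.57 and 7.94 on the Foxo arrays, 8.92, 8.75 and 8.75 on the Mnt arrays and 8.67, 8.74 and 8.77 on the control arrays. It was 1.96-fold lower (-0.97 ± 0.11, adjusted p = 0.0328). For both genes all Foxo arrays were below all others and the Mnt and control arrays overlapped. The genes flanking the pair, Exn and CG7728, had differences of -0.19 and -0.02 and overlapping groups. CG6664 was measured by a probe set whose name ends in _s_at, a suffix that Affymetrix gives to probe sets that can match several transcripts. CG3764 has 2 probe sets, and the mean of both gave -0.53 and no call.

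CG13794 belongs to a row of genes for predicted SLC6-family transporters, which carry small solutes with sodium. Its signal was 8.59, 8.28 and 8.46 on the Foxo arrays, 9.56, 9.55 and 9.40 on the Mnt arrays and 9.50, 9.50 and 9.83 on the control arrays. All Foxo arrays were lowest, and the level was 2.08-fold lower (-1.06 ± 0.11, adjusted p = 0.0328). Its direct neighbours CG13793 and CG13795 differed by -0.23 and -0.27, with overlapping groups. CG33296, the next tested gene before CG13793, differed by -0.62 ± 0.19 without overlap and was not called (adjusted p = 0.257).

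The lama gene, for lamina ancestor, is known from precursors of neurons and glia. It had 10.37, 10.56 and 10.38 on the Foxo arrays, 11.15, 11.15 and 11.08 on the Mnt arrays and 11.23, 11.28 and 11.45 on the control arrays. The Foxo arrays were lowest, the Mnt arrays lay between, and the controls were highest with no overlap. The difference of -0.69 ± 0.08 (adjusted p = 0.0328) rests on a probe set with the suffix _s_at.

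The other 3 falls were each under 1 on the log2 scale. CG6083, of the aldo-keto reductase family, had 7.82, 7.89 and 7.72 on the Foxo arrays, 8.81, 8.44 and 8.61 on the Mnt arrays and 8.25, 8.35 and 8.48 on the control arrays (-0.81 ± 0.11, adjusted p = 0.0409). CG5500 had 10.05, 10.10 and 10.10 on the Foxo arrays, 10.77, 10.50 and 10.80 on the Mnt arrays and 10.53, 10.61 and 10.65 on the control arrays (-0.61 ± 0.08, adjusted p = 0.0409). CG32085 had 8.09, 8.07 and 8.23 on the Foxo arrays, 8.74, 8.66 and 8.61 on the Mnt arrays and 8.40, 8.44 and 8.40 on the control arrays (-0.54 ± 0.07, adjusted p = 0.0382). For all 3 the Foxo arrays were below all others, and for CG32085 the Mnt arrays were also above all controls.

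Among the rises, squ had the lowest p. Squash acts in the germline pathway of small piwi-interacting RNAs that silences transposons. Its signal was 6.28, 6.48 and 6.19 on the Foxo arrays, 4.63, 4.64 and 5.03 on the Mnt arrays and 4.56, 4.70 and 4.58 on the control arrays. All Foxo arrays were above all others, while the Mnt and control arrays were below 5.09, the lower quartile of the genes' mean signals. The difference was 1.55 ± 0.14 with an adjusted p of 0.0156. The values carry no detection call and squ is among the dimmest 40% of genes, so no fold is given. The other 28 measured genes of the piRNA pathway did not pass the test. In that list 13 of 29 were higher, and the median was -0.02. The groups did not overlap for 2 of 29 (6.90%), against 18.1% of all genes. In the fit that holds the testis score, squ had a difference of 1.45 and an adjusted p of 0.0462, just under the threshold. The part of testis tissue in this rise was not tested beyond the fits with marker scores.

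Prx6c had the largest difference of the called genes. It encodes a peroxiredoxin, an enzyme that reduces peroxides. Its signal was 9.08, 9.70 and 8.31 on the Foxo arrays, 6.25, 6.67 and 6.25 on the Mnt arrays and 6.46, 6.16 and 6.87 on the control arrays. Every Foxo array was above every other, though the 3 Foxo arrays spread over more than 1 log2 unit. The level was 6.21-fold higher (2.64 ± 0.33, adjusted p = 0.0406). Of the 15 measured peroxiredoxins and antioxidant enzymes, 9 were higher with a median of 0.03, and no other was called. Trxr1, a thioredoxin reductase, had 10.78, 10.55 and 10.73 on the Foxo arrays, 10.99, 10.88 and 11.07 on the Mnt arrays and 10.87, 10.92 and 10.97 on the control arrays (-0.29 ± 0.07, adjusted p = 0.204), lower in Foxo muscle. None of 34 glutathione S-transferases was called, 8 had an unadjusted p under 0.05, and 23 were lower. The groups did not overlap for 11 of 34 (32.4%), against 18.1% of all genes. The lowest p of that family were those of GstO2 and GstT2. GstO2 had 10.27, 10.61 and 10.40 on the Foxo arrays, 10.78, 10.91 and 11.14 on the Mnt arrays and 10.63, 10.62 and 10.66 on the control arrays (-0.51 ± 0.11, adjusted p = 0.147). GstT2 had 8.42, 8.35 and 8.36 on the Foxo arrays, 8.71, 8.62 and 8.58 on the Mnt arrays and 8.63, 8.75 and 8.74 on the control arrays (-0.26 ± 0.06, adjusted p = 0.183). Every Foxo array was below every other array for both enzymes.

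Cyp4p2 is a cytochrome P450, a family that oxidises lipids, hormones and foreign compounds. Its signal was 7.76, 7.76 and 7.10 on the Foxo arrays, 5.99, 5.99 and 5.82 on the Mnt arrays and 5.94, 6.15 and 5.85 on the control arrays. All Foxo arrays were above all others, and Foxo replicate 3 was the lowest of them. The level was 3.04-fold higher (1.60 ± 0.19, adjusted p = 0.0328). Its neighbour Cyp4p1 lay the other way, with 10.30, 10.28 and 10.96 on the Foxo arrays, 11.13, 11.10 and 10.99 on the Mnt arrays and 10.87, 10.91 and 10.94 on the control arrays. Foxo replicates 1 and 2 were low and Foxo replicate 3 was not, and the difference of -0.56 ± 0.16 was not called (adjusted p = 0.252). Among 81 measured P450 genes 36 were higher and 45 lower, and the median was -0.03. The groups did not overlap for 22 (27.2%), against 18.1% of all genes. Cyp4d21, known for high expression in males and a part in courtship, was next in order of p in this family. It had 9.42, 9.26 and 9.21 on the Foxo arrays, 10.12, 10.59 and 10.18 on the Mnt arrays and 10.22, 10.37 and 10.61 on the control arrays (adjusted p = 0.0596), with every Foxo array below all others.

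The last rise was mEFTu1, the mitochondrial elongation factor that brings aminoacyl-tRNA to the ribosome. It had 10.67, 10.75 and 10.73 on the Foxo arrays, 10.23, 10.26 and 9.99 on the Mnt arrays and 10.35, 10.37 and 10.41 on the control arrays. The 3 groups did not overlap, with Foxo highest and Mnt lowest. The level was 1.47-fold higher in Foxo than in Mnt muscle (0.56 ± 0.07, adjusted p = 0.0409). Mitochondrial ribosomal proteins did not share its direction as a list. Of 69 measured, 30 were higher and 39 lower, the median was -0.01, none was called, and 9 had an unadjusted p under 0.05. The lowest p among them was that of mRpL27, with 9.60, 9.70 and 9.40 on the Foxo arrays, a mean of 10.02 ± 0.02 (SD, n = 3) on the Mnt arrays and 9.82, 9.79 and 10.05 on the control arrays (-0.45 ± 0.09, adjusted p = 0.147).

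**Figure D2:**
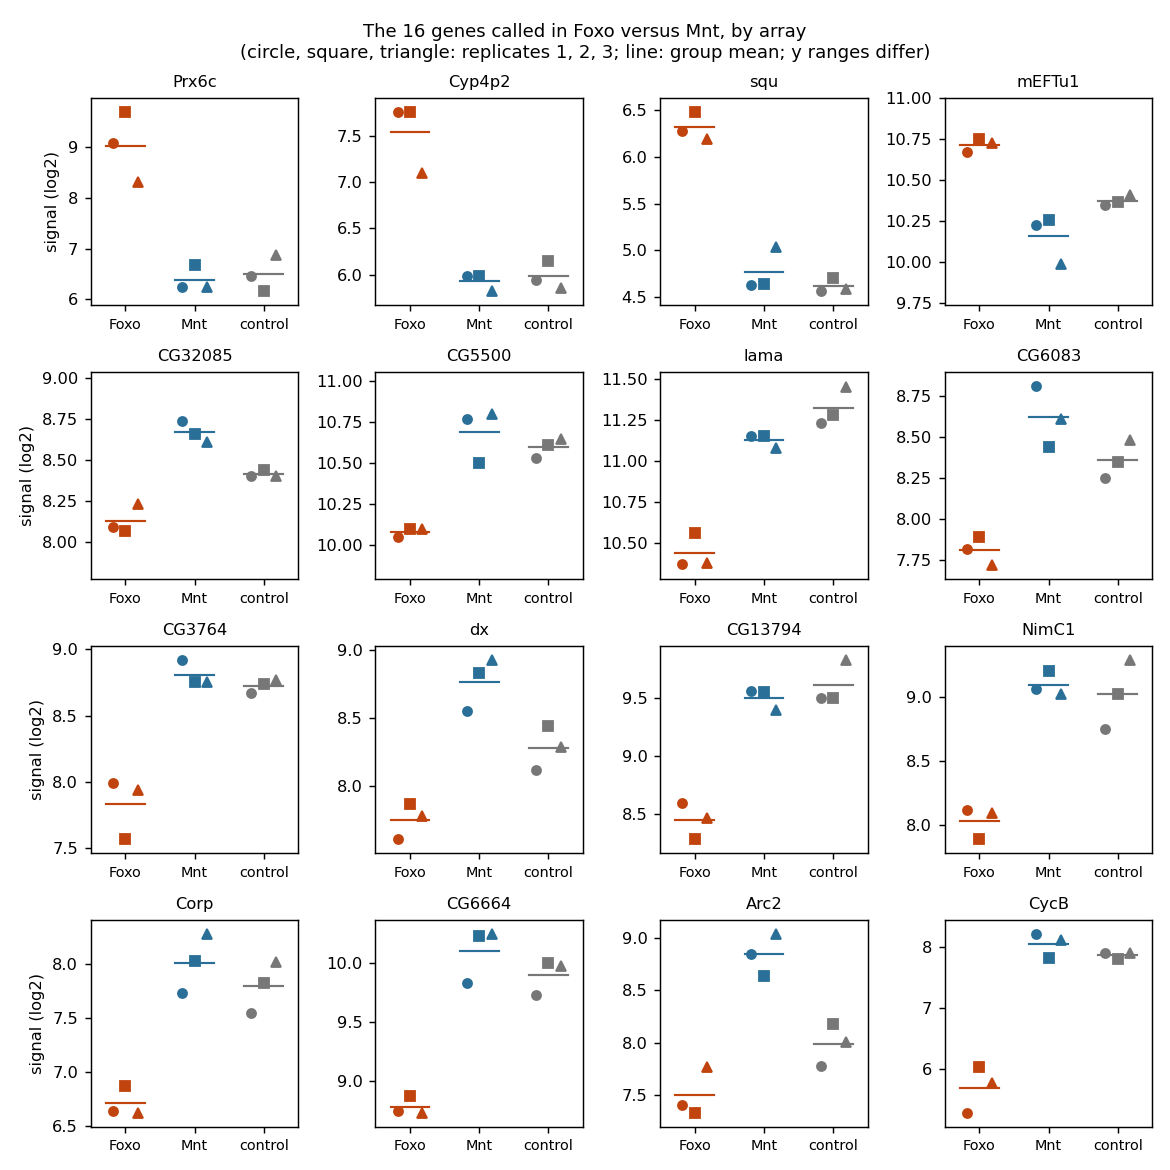
Log2 signal of the 16 called genes on the 3 Foxo, 3 Mnt and 3 control arrays, 1 panel per gene, with a symbol per replicate and a line at each group mean. No Foxo array overlaps a Mnt or control array in any panel, and in 11 of the 16 panels the Mnt and control arrays overlap.

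The control arrays placed the level of each called gene between the overexpressing groups or beyond them. All 16 called genes had Foxo arrays apart from all control arrays, and 5 had Mnt arrays apart from them too, which were lama, Arc2, CG32085, dx and mEFTu1. The control mean was nearer the Mnt mean for 15 of the 16 and nearer the Foxo mean for Arc2. For 11 of the 16 it lay at least 0.75 of the way from the Foxo to the Mnt mean. For dx and CG32085 it lay about midway (0.52 and 0.53), and for 3 of the 16 outside the span of both means. In the same fit, 7 of the 16 were also called against control in Foxo muscle, among 12 of all genes (0.1%). Against control in Mnt muscle 0 genes (0.0%) were called by limma, and 424 (3.54%) had an unadjusted p under 0.05. The overexpressed Mnt itself was not called there, at 2.61 ± 0.43 with an adjusted p of 0.45. These contrasts share the control and group arrays with the comparison of Foxo and Mnt, so their values stand beside it as a description.

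**Figure D3:**
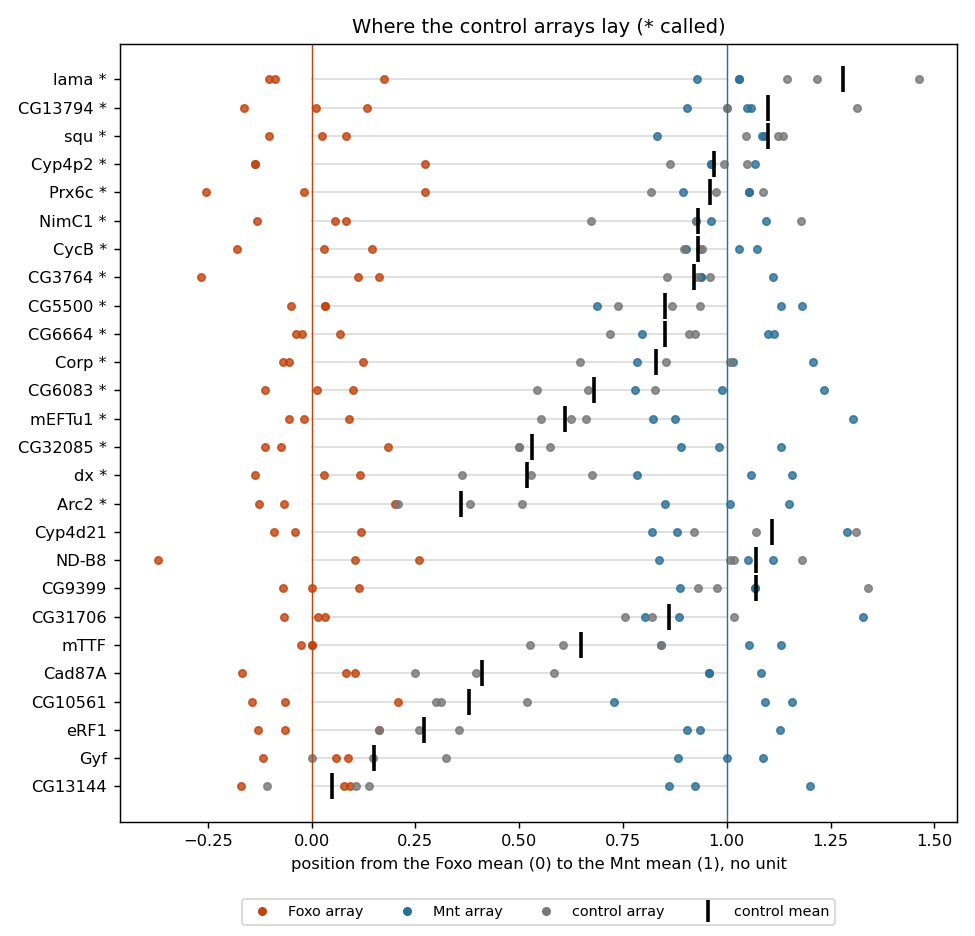
Position of every array between the Foxo mean (0) and the Mnt mean (1) for the 16 called genes (starred) and the 10 next by p, with the control mean as a black bar. Control means of 15 called genes lie nearer 1, those of dx and CG32085 only just. The control means of the next 10 genes are split, 5 nearer 1 and 5 nearer 0.

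The 10 genes next in order of p missed the threshold, with adjusted p from 0.0516 to 0.0709. In all 10 the Foxo and Mnt arrays did not overlap, and 2 were higher and 8 lower in Foxo muscle. Here the control mean was nearer the Foxo mean for 5. One of these was Gyf, a GYF-domain protein that acts in translational repression, with 12.70, 12.77 and 12.76 on the Foxo arrays, 13.04, 13.11 and 13.08 on the Mnt arrays and 12.74, 12.85 and 12.79 on the control arrays (-0.33 ± 0.05, adjusted p = 0.0658). Another was CG13144, with 7.75, 7.92 and 7.76 on the Foxo arrays, 7.25, 7.03 and 7.21 on the Mnt arrays and 7.72, 7.88 and 7.74 on the control arrays (0.64 ± 0.09, adjusted p = 0.055). For both genes the Mnt arrays stood apart while the Foxo and control arrays overlapped. The translation termination factor eRF1 had 10.25, 10.16 and 10.23 on the Foxo arrays, 9.93, 9.86 and 9.92 on the Mnt arrays and 10.10, 10.13 and 10.16 on the control arrays (0.31 ± 0.05, adjusted p = 0.0658). The remaining genes with controls nearer Foxo were CG10561, at -0.77 ± 0.11, and the cadherin gene Cad87A, at -0.48 ± 0.07.

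The other 5 had controls nearer Mnt. CG9399, of the mitochondrial pyruvate carrier family, had 12.67, 12.72 and 12.64 on the Foxo arrays, 13.06, 13.14 and 13.14 on the Mnt arrays and 13.08, 13.10 and 13.26 on the control arrays (-0.44 ± 0.06, adjusted p = 0.0516). The complex I subunit ND-B8 had 11.05, 11.78 and 11.60 on the Foxo arrays, 12.70, 12.45 and 12.77 on the Mnt arrays and 12.66, 12.65 and 12.85 on the control arrays (-1.16 ± 0.18, adjusted p = 0.0709). The mitochondrial transcription factor gene mTTF had 8.43, 8.42 and 8.43 on the Foxo arrays, 8.83, 8.75 and 8.86 on the Mnt arrays and 8.63, 8.75 and 8.66 on the control arrays (-0.39 ± 0.06, adjusted p = 0.0658). For these 3 genes the Foxo arrays were below all others. The rest were Cyp4d21, given above, and CG31706, at -0.61 ± 0.09.

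Gene lists were described by counts and medians, beside the median of -0.04 and the 18.1% of non-overlapping genes over all 11982. The 37 lists held 904 measured genes, of which 8 were called, 123 had an unadjusted p under 0.05, and 172 (19.0%) had groups that did not overlap. This share was close to the background.

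In the pathways upstream and downstream of both factors, no gene was called. Of 13 insulin and TOR pathway genes 8 were higher with a median of 0.03, 6 had an unadjusted p under 0.05, and the groups did not overlap for 5 (38.5%). The overexpressed foxo is itself a member and counts among the 6 and, by less than the second decimal, among the 5. The insulin receptor substrate chico had 9.54, 9.38 and 9.59 on the Foxo arrays, 9.31, 9.20 and 9.26 on the Mnt arrays and 9.38, 9.38 and 9.37 on the control arrays (0.25 ± 0.06, adjusted p = 0.215). The kinase Pdk1, which activates Akt, had 10.69, 10.64 and 10.76 on the Foxo arrays, 10.97, 10.78 and 11.01 on the Mnt arrays and 10.78, 10.73 and 10.57 on the control arrays (-0.22 ± 0.08, adjusted p = 0.301). Of 8 known FOXO targets measured, 6 were higher with a median of 0.04, 1 had an unadjusted p under 0.05, and the groups overlapped for all 8. Thor, the best known of these targets, had no probe set of its own. Sesn, a stress-induced inhibitor of TOR signalling, had the lowest p of the list, with 10.41, 10.01 and 10.12 on the Foxo arrays, 9.76, 9.88 and 10.03 on the Mnt arrays and 9.74, 9.72 and 9.86 on the control arrays (0.29 ± 0.11, adjusted p = 0.332).

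The Myc, Max and Mnt network had 8 measured genes, Mnt included, with a median of 0.07 and 3 with an unadjusted p under 0.05. Myc itself had no probe set of its own. The cofactor Hcf had 4.59, 4.73 and 4.85 on the Foxo arrays, 5.27, 5.22 and 4.92 on the Mnt arrays and 4.82, 4.96 and 4.90 on the control arrays (-0.41 ± 0.12, adjusted p = 0.252). Of 26 ribosome biogenesis genes, a class that Myc is known to drive, 14 were higher and 12 lower with a median of 0.00. The groups did not overlap for 1 (3.85%), 1 had an unadjusted p under 0.05, and none was called. The mean signal of the list was 7.27, 7.31 and 7.34 on the Foxo arrays, 7.42, 7.27 and 7.19 on the Mnt arrays and 7.39, 7.41 and 7.44 on the control arrays. The Foxo arrays were below all controls, and Mnt replicate 1 lay within their range. Of 19 genes of RNA polymerases I and III, none was called and 1 had an unadjusted p under 0.05. That gene was Maf1, the repressor of RNA polymerase III, with 10.64, 10.76 and 10.72 on the Foxo arrays, 11.09, 10.94 and 11.15 on the Mnt arrays and 10.81, 10.89 and 10.93 on the control arrays (-0.36 ± 0.07, adjusted p = 0.139).

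In translation and protein turnover no gene of 4 lists was called. Proteasome subunits were higher for 32 of 40 with a median of 0.08, and 1 had an unadjusted p under 0.05. Translation initiation factors were higher for 30 of 40, also with a median of 0.08, and 4 had an unadjusted p under 0.05. Cytosolic ribosomal proteins were higher for 30 of 40 with a median of 0.03, and 2 had an unadjusted p under 0.05. When each array was centred on its median these 3 medians became -0.02, -0.02 and -0.07, while the median of all genes moved to -0.14. The largest differences in the first pair of lists were those of the variants Prosbeta5R1 and eIF4E5. How their signals relate to the testis score of the arrays was not tested. Prosbeta5R1 had 5.09, 5.85 and 5.85 on the Foxo arrays, 4.74, 4.20 and 5.86 on the Mnt arrays and 5.24, 4.43 and 4.56 on the control arrays, a difference of 0.66. The initiation factor variant eIF4E5 had 7.64, 9.30 and 8.47 on the Foxo arrays, 7.07, 4.54 and 8.48 on the Mnt arrays and 7.56, 5.80 and 4.81 on the control arrays, a difference of 1.78. Prosbeta5R1 and eIF4E5 were lowest on Mnt replicate 2, which had a testis score of 5.66. Control replicate 3 had the lowest score of all arrays, 5.60. Its eIF4E5 signal was the lowest of the controls. Its Prosbeta5R1 signal was above that of control replicate 2, which had a score of 7.08. In the fit that holds the testis score, the median of proteasome subunits was 0.07 and the median of translation initiation factors was 0.05. Of 24 autophagy genes 17 were lower with a median of -0.06, and 4 had an unadjusted p under 0.05. Atg18b had the lowest p of them, with 8.46, 8.34 and 8.56 on the Foxo arrays, 8.94, 8.79 and 9.27 on the Mnt arrays and 8.68, 9.14 and 8.93 on the control arrays (-0.54 ± 0.15, adjusted p = 0.228).

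In energy metabolism no gene was called. Of 11 glycolysis genes 8 were lower with a median of -0.08, 4 had an unadjusted p under 0.05, and the groups did not overlap for 5 (45.5%). Pgi, which converts glucose 6-phosphate, had 12.91, 12.89 and 12.84 on the Foxo arrays, 13.07, 13.20 and 13.22 on the Mnt arrays and 13.20, 13.25 and 13.45 on the control arrays (-0.28 ± 0.08, adjusted p = 0.22). Pfk, the main regulated step of glycolysis, had 12.02, 11.57 and 11.70 on the Foxo arrays, 12.04, 12.25 and 12.39 on the Mnt arrays and 11.90, 12.16 and 12.14 on the control arrays (-0.47 ± 0.14, adjusted p = 0.252). For both enzymes every Foxo array was below every Mnt array, though for Pfk the gap was small because of Foxo replicate 1. Of 32 complex I genes 20 were lower with a median of -0.04, 6 had an unadjusted p under 0.05, and the groups did not overlap for 12 (37.5%). Of 39 genes of complexes III, IV and ATP synthase 20 were higher with a median of 0.00, 1 had an unadjusted p under 0.05, and the groups did not overlap for 3 (7.69%). The citric acid cycle list had a median of 0.02 over 11 genes, of which 1 had an unadjusted p under 0.05. That gene was SdhC, a subunit of succinate dehydrogenase, with 13.70, 13.78 and 13.74 on the Foxo arrays, 13.52, 13.52 and 13.55 on the Mnt arrays and 13.58, 13.61 and 13.70 on the control arrays (0.21 ± 0.05, adjusted p = 0.179).

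Among secreted factors 18 of 23 were lower in Foxo muscle with a median of -0.13, 5 had an unadjusted p under 0.05, and none was called. The groups did not overlap for 8 (34.8%). ImpL2, which binds and restrains insulin-like peptides, had 10.13, 10.03 and 10.36 on the Foxo arrays, 10.90, 10.71 and 10.68 on the Mnt arrays and 11.12, 10.74 and 10.88 on the control arrays (-0.59 ± 0.12, adjusted p = 0.147). Actbeta, an activin ligand, had 6.84, 7.13 and 7.19 on the Foxo arrays, 7.57, 7.26 and 7.51 on the Mnt arrays and 7.16, 7.37 and 7.30 on the control arrays (-0.39 ± 0.13, adjusted p = 0.28). Both were lower on every Foxo array than on every Mnt array.

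In immunity, none of 12 antimicrobial peptides and 19 genes of peptidoglycan recognition and NF-kappaB signalling was called, with 5 and 6 at an unadjusted p under 0.05. The antimicrobial peptide gene of lowest p was Drsl4, a drosomycin relative, with 13.77, 13.70 and 13.92 on the Foxo arrays, 14.20, 14.05 and 14.03 on the Mnt arrays and 14.07, 14.11 and 14.07 on the control arrays (-0.30 ± 0.07, adjusted p = 0.198). Peptidoglycan recognition and NF-kappaB genes had a median of -0.12 with 13 of 19 lower. The inhibitor cact had 10.26, 10.12 and 10.36 on the Foxo arrays, 10.61, 10.68 and 10.55 on the Mnt arrays and 10.61, 10.42 and 10.55 on the control arrays (-0.37 ± 0.08, adjusted p = 0.148). Its partner dl, an NF-kappaB factor, had 9.62, 9.65 and 9.92 on the Foxo arrays, 10.29, 9.97 and 10.04 on the Mnt arrays and 10.24, 10.25 and 10.19 on the control arrays (-0.37 ± 0.10, adjusted p = 0.23). Every Foxo array was below every Mnt and control array for both. Each of these genes has 2 probe sets. Over the alternative fits the difference ranged from -0.47 to -0.13 for cact and from -0.48 to -0.24 for dl.

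Of 28 sarcomere genes 18 were higher with a median of 0.02, 2 had an unadjusted p under 0.05, and none was called. Zasp52, a protein of the Z disc, had 13.42, 13.41 and 13.54 on the Foxo arrays, 13.65, 13.67 and 13.69 on the Mnt arrays and 13.60, 13.55 and 13.58 on the control arrays (-0.22 ± 0.05, adjusted p = 0.183). Small heat shock proteins and chaperones had a median of 0.00 over 17 genes, with 2 at an unadjusted p under 0.05 and none called.

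The 4 lists with the highest medians held genes of the digestive and male reproductive tract. Testis markers were higher for 15 of 16 with a median of 1.68, accessory gland markers for 15 of 17 with 1.63, maltases and amylases for 9 of 11 with 0.77, and gut markers for 21 of 23 with 0.60. None of their genes was called, and 0, 0, 4 and 2 had an unadjusted p under 0.05. The groups overlapped for all 16 testis markers. Without Foxo replicate 3 the median of the accessory gland markers was -0.30, and without Mnt replicate 2 that of the testis markers was 0.63. The maltase gene Mal-A6 had 10.84, 12.01 and 10.85 on the Foxo arrays, 9.22, 10.15 and 10.05 on the Mnt arrays and 9.79, 10.28 and 9.82 on the control arrays (1.42 ± 0.36, adjusted p = 0.204). The remaining tissue lists had medians of 0.00 for fat body, -0.02 for neurons and photoreceptors and -0.07 for cuticle.

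**Figure D4:**
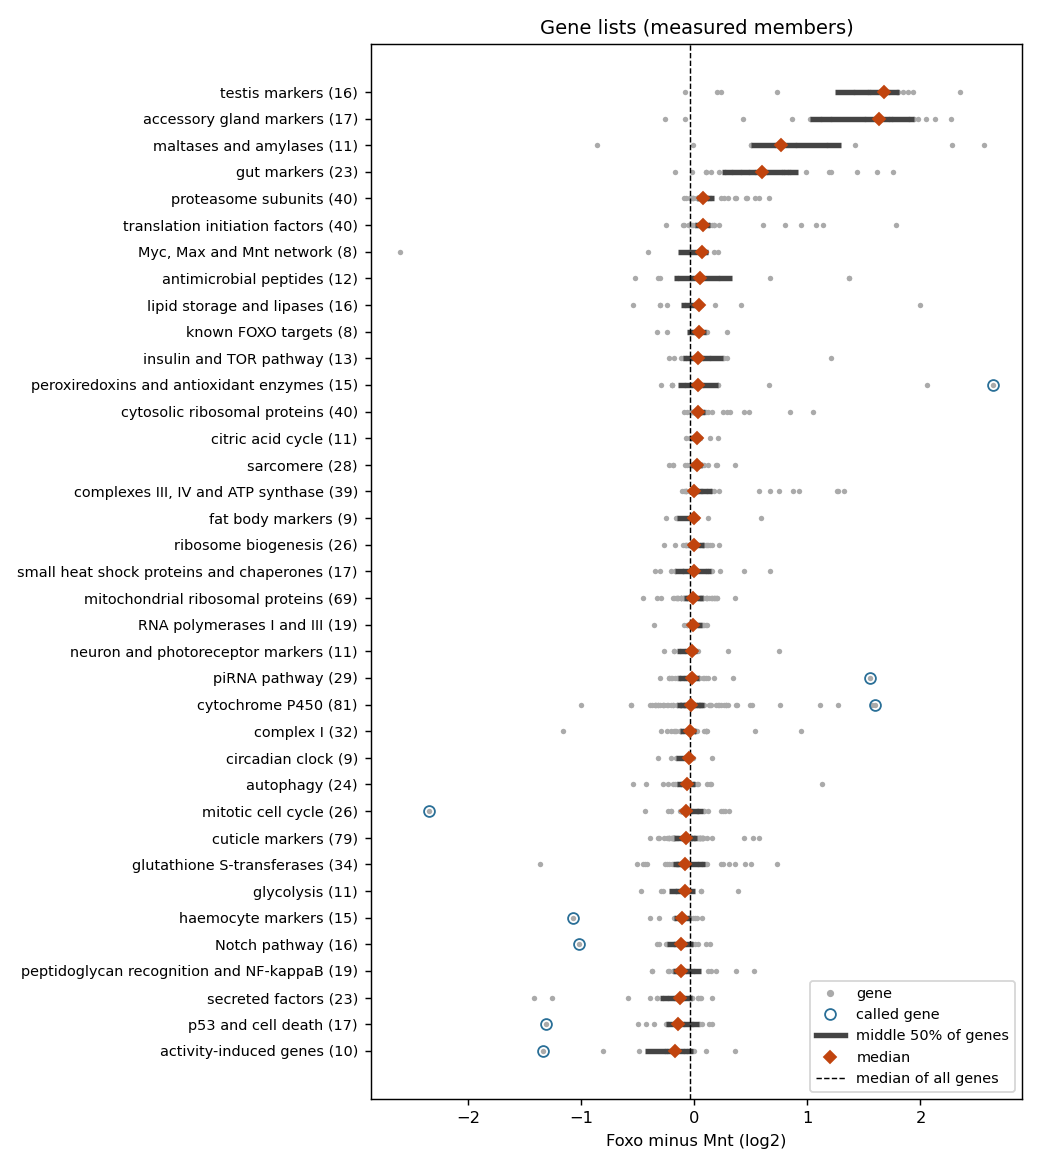
Difference between Foxo and Mnt means (horizontal axis, log2) for the measured members of 37 gene lists, with the list median as a diamond, the interquartile range as a bar and called genes circled. Testis, accessory gland, maltase and gut lists lie to the right of the dashed median of all genes, and the other medians lie between -0.17 and 0.08.

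The number of calls depended on which arrays entered the fit. Without Foxo replicate 1, 2 or 3 the calls numbered 1, 6 and 14, and without Mnt replicate 1, 2 or 3 they numbered 2, 2 and 1. Without control replicate 1, 2 or 3 they numbered 8, 0 and 6, although those arrays entered only through the shared estimate of the spread. Without control replicate 2, when none was called, 1423 genes had an unadjusted p under 0.05. With only the 6 Foxo and Mnt arrays 0 genes were called and 1407 had an unadjusted p under 0.05. Of the called genes, CycB stayed called in 17 of 22 alternative fits, CG6664 in 15 of 21 and squ in 14 of 21, while mEFTu1 stayed called in 6 of 22. The log2 difference of CycB ranged from -2.53 to -2.14 over these fits, that of CG6664 from -1.50 to -1.23 and that of squ from 1.40 to 1.68.

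Marker scores of other tissues were entered as covariates in the same way. With the testis score 6 genes were called, of which CycB, squ, CG6664, CG13794 and NimC1 were among the 16 and Cyp4d21 was added. With testis and accessory gland scores 5 were called, of which CycB, squ, Cyp4p2 and Prx6c were among the 16 and Noc2 was added. These fits have fewer residual degrees of freedom than the fit without scores. The accessory gland score was 9.23 on Foxo replicate 3 and at most 5.32 on any other array, so it largely marks that array.

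**Figure D5:**
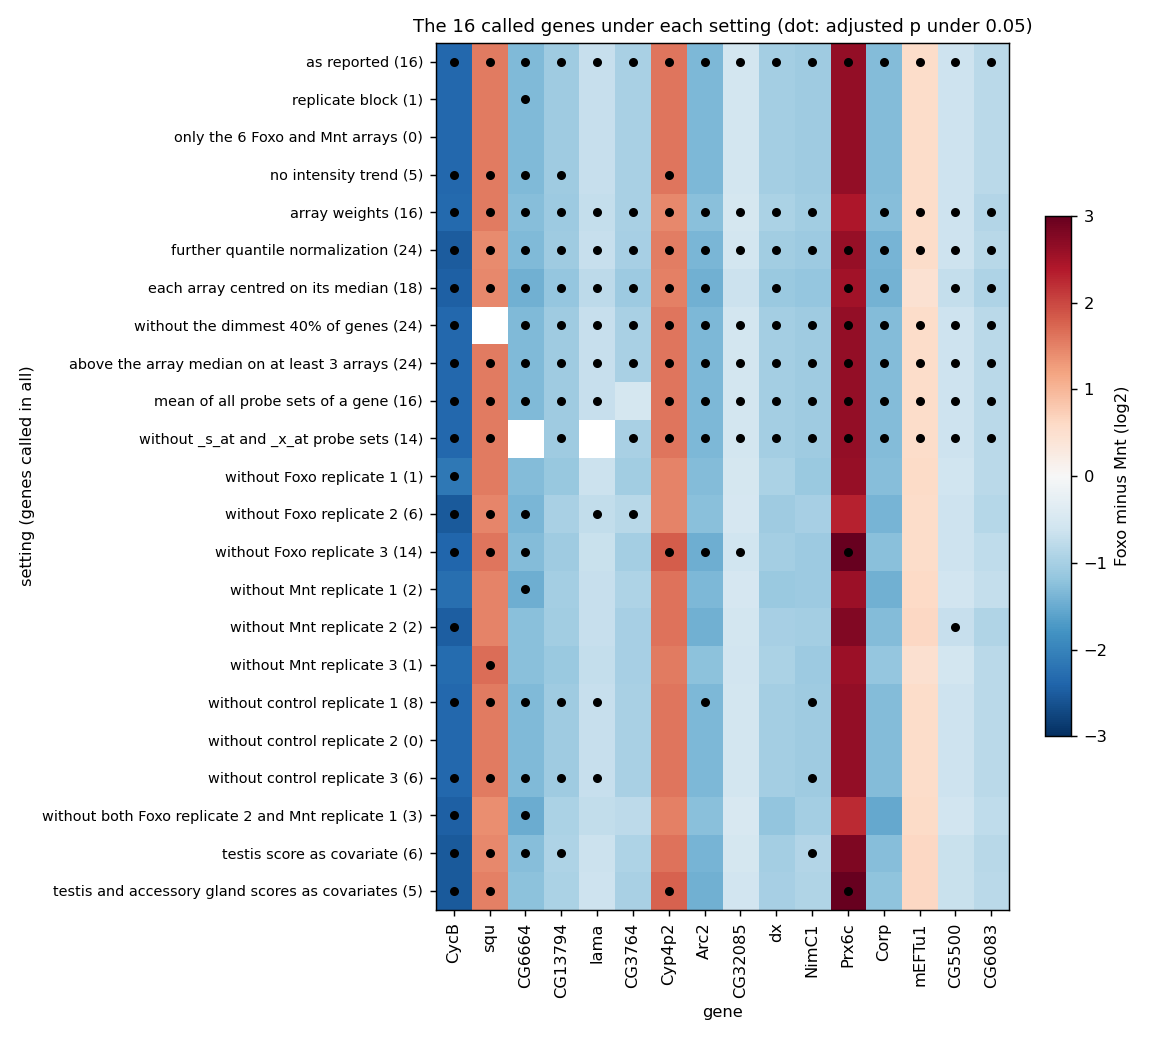
Difference between Foxo and Mnt means (colour, log2) of the 16 called genes (columns) under the reported fit and each alternative (rows, with the number of genes called in all). A dot marks an adjusted p under 0.05, blank cells were not measured under that setting, and every column keeps 1 colour from top to bottom while the dots thin out where an array is left out.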

How the data were processed

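RNA of 9 muscle samples was hybridised to 1-colour Affymetrix Drosophila Genome 2.0 arrays, 1 array per sample, from 6 µg of total RNA. The authors deposited 1 table of log2 signals for 18952 probe sets, made with RMA per the submitters' processing notes, and the deposited log2 values run from 2.62 to 14.84. RMA equalises the arrays' distributions, so a shift shared by most transcripts cannot be seen. No RMA version is stated.

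Groups and replicate numbers came from the sample titles. After 183 control probe sets were left out, 13647 probe sets had exactly 1 gene in the platform annotation and 402 had several. The probe set of highest mean stood for each gene, which left 11982 genes. Signals of different genes are not comparable as amounts of transcript.

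limma 3.58.1 in R 4.3.3 (lmFit and eBayes with an intensity trend) fitted all 9 arrays together with 6 residual degrees of freedom. Tests were two-sided, with Benjamini-Hochberg adjusted p under 0.05 over all genes as the threshold, and ± is limma's moderated standard error. An exact permutation test of 3 against 3 arrays cannot give a p under 0.1, so none was run. The number of arrays limits the precision. The fit was tested on simulated data.

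The genes named by rule were foxo, Mnt, every called gene, the 10 next by p and the 2 members of lowest p of each list. The rule also admits the brightest member of each list. The text leaves these out, and for some lists the lowest p members too. Other named genes, among them grnd, Cyp4p1, Prosbeta5R1, eIF4E5, Actbeta and the neighbours of called genes, were chosen after their values were seen. The comparison, the lists and the alternatives were chosen with earlier results of these data known. Promoter sequences were not used here. Neighbouring genes were taken from the order of genes in the Release 6 annotation. No batch is given in the sources used here. The same-number correlations of deviations from group means between Foxo and Mnt were 0.099, -0.494 and 0.081, so replicate numbers were not treated as pairs.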

Additional observations from a re-analysis of the deposited data

How the results depend on the processing

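All 16 called genes kept their direction under every alternative in which they were measured, and their calls did not all hold. Against 16 calls in the reported fit, the replicate block gave 1 (CG6664), only the 6 arrays gave 0, no intensity trend gave 5, a further quantile normalization gave 24, and both filters on dim genes, which test fewer genes, gave 24 each. Leaving out 1 array at a time gave 0 (without control replicate 2) to 14 (without Foxo replicate 3), and leaving out both Foxo replicate 2 and Mnt replicate 1 gave 3. The testis score as a covariate gave 6 and testis with accessory gland scores gave 5. Adjusted p under 0.01 gave 0, an added log2 difference of at least 1 gave 10, and testing every probe set gave 27 of 18769. Array weights gave 16, centring 18, the mean of all probe sets 16 and leaving out _s_at and _x_at probe sets 14. Except where the smaller number of samples or genes shows it, the cause was not tested. Of uncalled genes, Polr1C changed sign to -0.00 (adjusted p = 0.992) with centred arrays and COX7C to 0.34 (adjusted p = 0.554) with the mean of all probe sets. Replicate numbers were not shown to pair the samples, since 1 of 3 Foxo arrays was closest to the Mnt array of its own number. The share of higher calls was 4 of 16 in the reported fit, 5 of 24 with quantile normalization and 3 of 18 with centring, and the median of all genes was -0.04, -0.07 and -0.14. RMA values carry no detection call, so the signal over background is unknown.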

Other observations

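A few genes, chosen after their values were seen, set 1 Foxo array apart from the other 2. Noc2, which acts in ribosome assembly in yeast, had 6.88, 6.87 and 9.23 on the Foxo arrays, 9.74, 9.69 and 9.73 on the Mnt arrays and 9.53, 9.66 and 9.60 on the control arrays. The difference of -2.06 ± 0.55 was not called (adjusted p = 0.22), and without Foxo replicate 3 it was -2.85 with an adjusted p of 3.82e-06. Cyp6a2, a cytochrome P450 known from insecticide resistance, had 9.72, 9.76 and 7.60 on the Foxo arrays, 8.08, 7.80 and 7.38 on the Mnt arrays and 7.77, 7.60 and 7.83 on the control arrays. In Foxo muscle CG31676 had 9.62, 9.52 and 10.37, against 10.43, 10.54 and 10.58 on the Mnt arrays. For these 3 genes Foxo replicate 3 lay near the Mnt and control arrays.

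CG10383 set Foxo replicate 2 apart in the same way, with 11.21, 8.60 and 11.30 on the Foxo arrays, 8.65, 8.15 and 8.85 on the Mnt arrays and 8.95, 8.48 and 9.05 on the control arrays. Without Foxo replicate 2 its difference was 2.71 with an adjusted p of 0.0328.

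The antimicrobial peptide genes DptB and Mtk spread over a wider range among control arrays than the difference between the Foxo and Mnt means. DptB had 9.44, 9.03 and 9.05 on the Foxo arrays, 8.14, 7.57 and 7.69 on the Mnt arrays and 8.60, 9.79 and 7.89 on the control arrays. Mtk had 10.65, 11.14 and 10.82 on the Foxo arrays, 9.93, 8.62 and 9.95 on the Mnt arrays and 10.45, 11.65 and 9.21 on the control arrays. All Foxo arrays were above all Mnt arrays for both genes, and neither difference was called (1.37 ± 0.42 with an adjusted p of 0.257 for DptB, and 1.37 ± 0.59 with 0.367 for Mtk).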
